A study of Mus musculus with 34 samples.

Results

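The change of gene expression between 4 and 48 h post-MI was examined in mouse hearts injected with AC modRNA, a chemically modified messenger RNA whose cargo the sample labels abbreviate as AC. All libraries at these times labelled as AC injection were taken, 4 hearts at 48 h and 4 at 4 h, which are 8 of the 34 samples of the series. Both groups were left ventricle of CFW mice with myocardial infarction (MI) after the LAD, the main artery of the left ventricle, had been tied off for good, and AC modRNA was given into the border zone right after the ligation. As far as the labels describe the hearts, the groups differed by time alone. Their titles, however, are written differently at 4 and 48 h, and some S-numbers, of unstated meaning, occur at both times. Whatever this numbering stands for cannot be told apart from time, here or in the Luc hearts described next. Hearts with the same infarct and an injection of Luc (luciferase) modRNA (4 at 4 h and 4 at 48 h) share no library with them and served as the like comparison, and 2 sham-operated hearts without injection were collected at 4 h. Age and sex were not stated, and neither was the part of the ventricle taken for these libraries. RNA was total RNA made into stranded poly(A) libraries, and the labels do not say whether each library came from a separate mouse. The p-values therefore rest on the spread between libraries within groups, pooled over all groups of the fit and not over the compared libraries alone.

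An infarct passes through overlapping phases. In the first hours, stressed muscle, vessel and stromal cells switch on immediate early transcription factors and cytokines, and neutrophils enter. Over the next days monocytes follow and become macrophages that clear dead cells, fibroblasts divide and lay down matrix, and surviving cardiomyocytes lower the genes of mitochondrial metabolism and contraction while raising fetal genes. Sphingolipids enter this picture because ceramide, sphingosine and sphingosine 1-phosphate (S1P) act on cell death and on the traffic of leukocytes. Acid ceramidase, the product of Asah1, splits ceramide into sphingosine and a fatty acid in the lysosome.

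Some members of the gene lists described below hold a known motif next to their start, and a few are printed here from lists whose calls went opposite ways. The letters come from the RefSeq windows of the mouse build GRCm38.p6, read 5′ to 3′ on the strand of the gene, within the 250 bases before the start, and the capitals mark the motif. The first set holds the NF-kB motif, searched on both strands as GGG, any 2 bases and TTTCC, in cytokine and feedback genes that fell from 4 to 48 h.
Il6 (chr5:30013060-30013089, plus strand): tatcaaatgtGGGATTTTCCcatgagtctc
Cxcl1 (chr5:90891164-90891193, plus strand): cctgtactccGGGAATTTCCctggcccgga
Cxcl2 (chr5:90903792-90903821, plus strand): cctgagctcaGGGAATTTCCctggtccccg
Nfkbia (chr12:55492657-55492686, minus strand): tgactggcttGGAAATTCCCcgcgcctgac
Tnfaip3 (chr10:19015411-19015440, minus strand): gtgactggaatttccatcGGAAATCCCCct
The capitals of Nfkbia and Tnfaip3 are the motif as it reads from the other strand. Of the 16 tested members of the cytokine list with a window, 7 held this motif, against 1.8% of the windows of all 9737 tested genes that had one. The second set holds the cAMP response element, searched as TGACGTCA, which reads the same on both strands, in immediate early genes that fell.
Btg2 (chr1:134079303-134079332, minus strand): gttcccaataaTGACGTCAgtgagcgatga
Dusp1 (chr17:26508597-26508626, minus strand): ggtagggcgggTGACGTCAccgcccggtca
Maff (chr15:79347480-79347509, plus strand): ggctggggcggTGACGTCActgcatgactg
These 3 were the only ones of the 20 immediate early genes with a window that held it, and 3.02% of all windows did. None of the 20 held the AP-1 motif TGANTCA in this window, which 5.68% of all windows held. The third set holds the cell cycle homology region, searched as TTTGAA on both strands, in cell division genes that rose.
Cdk1 (chr10:69352966-69352995, minus strand): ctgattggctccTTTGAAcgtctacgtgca
Mki67 (chr7:135716478-135716507, minus strand): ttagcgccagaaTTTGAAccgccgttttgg
Top2a (chr11:99024351-99024380, minus strand): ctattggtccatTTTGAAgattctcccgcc
Kif11 (chr19:37376351-37376380, plus strand): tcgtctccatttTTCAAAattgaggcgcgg
Of the 21 cell cycle genes with a window, 7 held TTTGAA and 18 held CCAAT on either strand, against 12.7% and 40.2% of all windows. The interferon response motif, searched as GAAA, any 2 bases and GAAA, was in 7 of 13 interferon-stimulated genes with a window (3.3% of all windows), and the E-box CACGTG in 5 of 14 clock genes (9.88%). Where a gene holds several matches, one is printed. A match of letters does not show that a factor was bound.

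The values are deposited CPM (read counts relative to library size) after scaling by the trimmed mean of M values (TMM), so a level is relative to a library's scaled size, and levels were compared within a gene. Differences were tested with limma on log2(CPM + 1) over the 12555 genes whose mean over all 24 libraries reached 1 CPM, and a call is a Benjamini-Hochberg adjusted p under 0.05. On this scale the change of a gene of low level is understated. Depth is not stated for each library, and some values are fractions of reads, so no counting interval is given. The listed values of a library summed to 518618 to 534624 CPM at 48 h and 619524 to 789483 at 4 h. Pairs of AC libraries correlated at r of 0.971 to 0.990 within 48 h, and of 0.877 to 0.927 between the times, over the genes tested. At 4 h, AC replicate 2, the only AC 4 h library whose title carries a second number, of unstated meaning, stood apart, with r of 0.940 to 0.970 to the other 3, which correlated at 0.979 to 0.988 among themselves. Its distance followed transcript length. Relative to the mean of the other 3, its median log2 difference was -0.55 in the shortest of 5 equal classes of genes by transcript length (96 to 1996 nt) and 0.42 in the longest (5346 nt and more), as the plot of differences by transcript length shows. Other AC libraries had slopes of smaller range, from 0.44 to -0.25 in AC 4 h replicate 1, 0.22 to -0.34 in AC 48 h replicate 1 and -0.20 to 0.25 in AC 48 h replicate 4. The median change from 4 to 48 h ran from -0.11 to 0.15 over the same classes, and from -0.26 to 0.27 without AC 4 h replicate 2. The part of this slope in the results was not tested, and calls of the genes described that were lost without that library are given beside them.

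**Figure D1:**
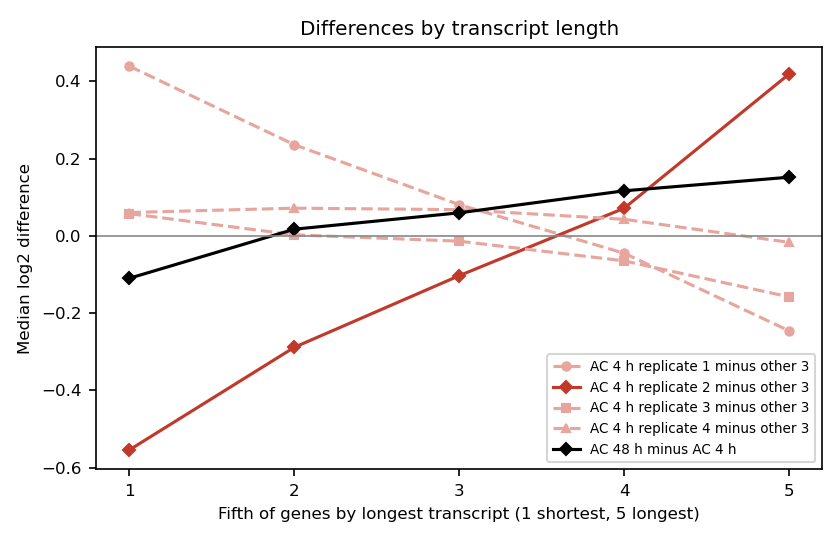
Median log2 difference (y axis) of the genes in each of 5 classes by the length of the longest annotated transcript (x axis, 1 shortest, 5 longest), for each AC 4 h library minus the mean of the other 3 and for AC 48 h minus AC 4 h. Replicate 2 rises from -0.55 to 0.42, replicate 1 runs the other way from 0.44 to -0.25, and the change between the times runs from -0.11 to 0.15.

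Asah1 (chr8:41340646-41374697, minus strand, in the build mm10 of the file) was examined first. AC may abbreviate acid ceramidase, its product, but the labels do not spell this out. It stood at 13703, 5597, 5296 and 9229.8 CPM in the AC libraries at 4 h and at 42.5, 112, 66.4 and 80.3 CPM at 48 h, and the mean of the AC 24 h libraries lay between, at 199.9 CPM. In Luc hearts it was 25.6 ± 1.35 CPM at 4 h and 24.5 ± 2.88 at 48 h (SD, n = 4), and the sham hearts had 32.9 and 25.1 CPM. Every AC library thus exceeded every Luc and sham library, also at 48 h, and the groups of AC hearts at 4 and 48 h did not overlap. The mean fell 112-fold from 4 to 48 h (log2 -6.76 ± 0.29 SE, adjusted p = 4.2e-13, limma). At 4 h this single gene held 0.788% to 1.74% of the summed CPM of a library. If the injected RNA encodes acid ceramidase, its reads and those of the gene of the mouse cannot be told apart in a count per gene.

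**Figure D2:**
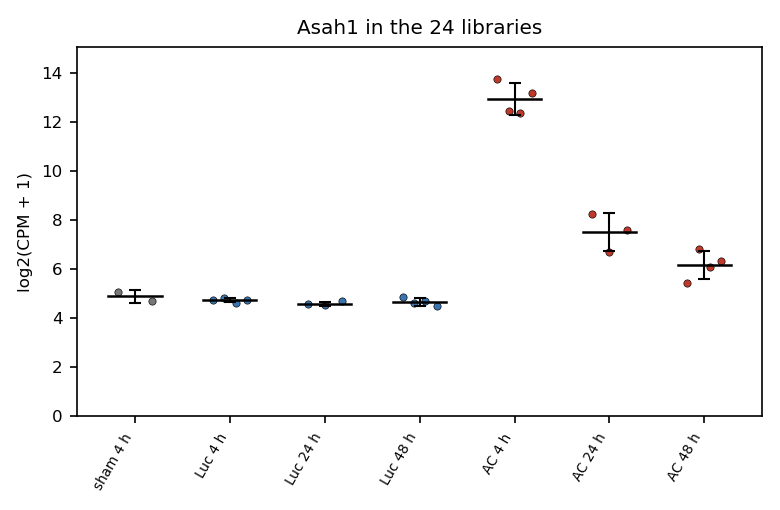
Asah1 in log2(CPM + 1) (y axis) in each of the 24 libraries, by group (x axis), with the mean and SD of the log2 values as bars. AC libraries at 4 h sit far above all others, and AC libraries at 24 and 48 h remain above the Luc and sham libraries.

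From 4 to 48 h, 3339 genes rose and 2631 fell in AC hearts, which is 26.6% and 21% of the genes tested and 47.6% in all. These shares are the background for each gene group below. Without overlap between the libraries, 24.6% of genes lay higher and 17.9% lower at 48 h. The balance of rises and falls depended on the scaling. With every library rescaled to an equal total, 6232 genes rose and 1221 fell and the median gene rose by 0.40 (0.05 as deposited), whereas rescaling by median ratios gave 3001 and 3052. In Luc hearts 1888 genes rose and 2696 fell (15% and 21.5%, or 36.5% in all), 3571 and 1344 with equal totals. As these are pieces of tissue, fewer cells of a type and less RNA per cell cannot be told apart in any result here.

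**Figure D3:**
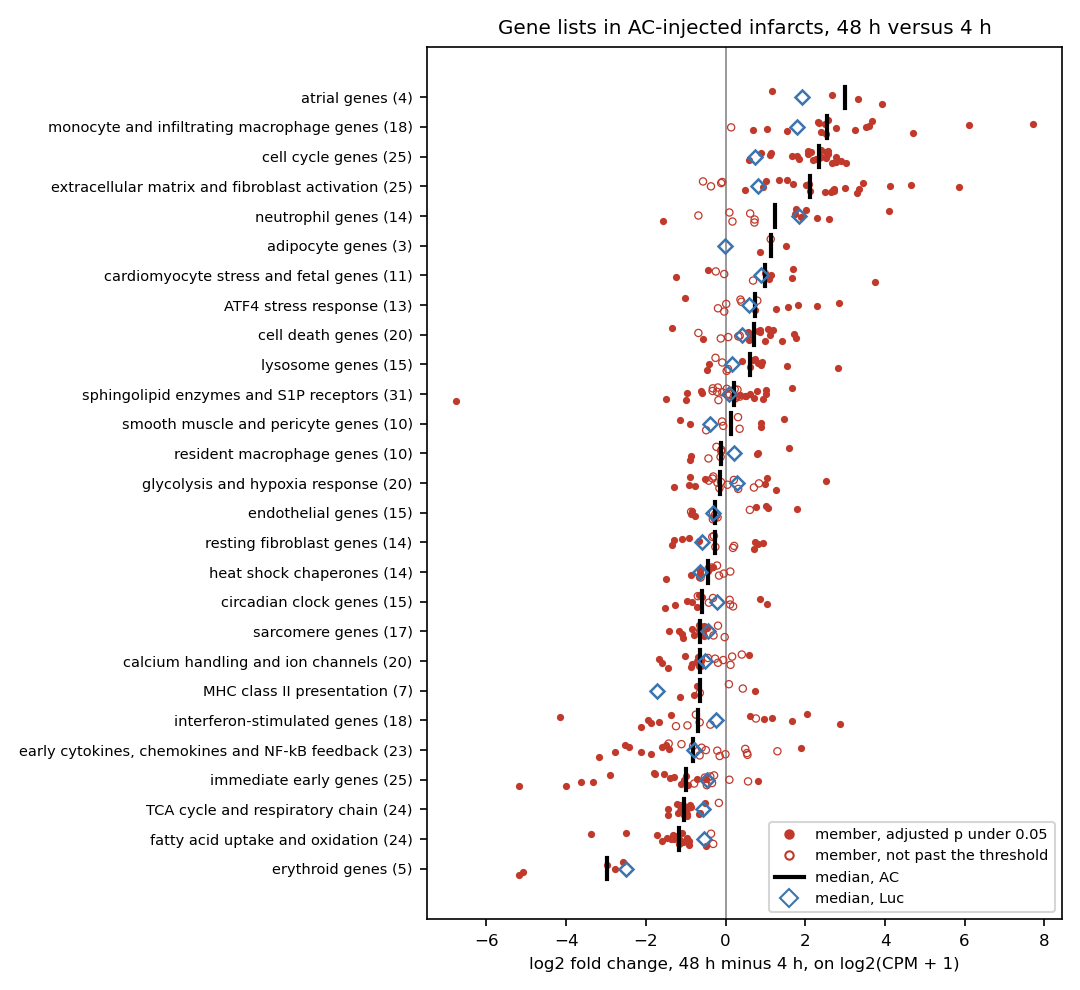
Log2 fold change from 4 to 48 h in AC hearts (x axis) of each tested member of the gene lists (y axis, with the number of members tested), filled where the adjusted p is under 0.05. Black bars mark the AC median and open diamonds the Luc median. Infiltrating macrophage, cell cycle, matrix and atrial lists lie to the right, and erythroid, fatty acid oxidation and respiratory chain lists to the left.

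The genes of monocytes and infiltrating macrophages rose almost throughout. Of 18 tested, 17 rose and none fell, with a median of 2.55 against 0.05 for all genes, and the summed level of the list went from 199 to 241 CPM per library at 4 h to 905 to 1314 CPM at 48 h. Spp1 (chr5:104435111-104441053), which encodes the secreted protein osteopontin, had the largest increase of all genes that met the rule for named genes, with 0.713, 0.66, 0.291 and 0.477 CPM at 4 h and 323, 348, 398 and 236 CPM at 48 h (log2 7.72 ± 0.54 SE, adjusted p = 5.9e-10). Arginase 1 (Arg1), which marks macrophages of the repair phase, was listed at 0.0839, 0.0287, 0 and 0 CPM at 4 h and reached 85.6, 62.9, 68.4 and 63.6 CPM at 48 h (log2 6.10 ± 0.41 SE). Both genes were near the floor at 4 h in every library and high at 48 h in every library. Ccr2, the chemokine receptor that draws monocytes out of the blood, went from 0.818 ± 0.67 to 44.5 ± 8.9 CPM (SD, n = 4; log2 4.70, adjusted p = 3.0e-11), and its 24 h level was 1.77 ± 1.54 CPM (n = 3). Ms4a7, a membrane protein of macrophages, was 2.6, 1.81, 2.04 and 1.73 CPM at 4 h and 15.1, 17.2, 21.8 and 14.9 CPM at 48 h. Lyz2, lysozyme of myeloid cells and the most abundant member, rose 2.06 ± 0.596-fold, from 122 ± 22.6 to 251 ± 55.7 CPM. Cd14, a receptor for bacterial lipids and the single member that did not pass, had 29.7 and 32.9 CPM.

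Genes of resident macrophages were mixed. Of 10 tested, 3 rose and 2 fell, with a median of -0.12 that became 0.24 with equal totals and -0.37, with 2 up and 2 down, without AC 4 h replicate 2. Igf1, a growth factor, rose from 5.5, 6.75, 4 and 5.1 to 18.1, 15, 22.1 and 17.2 CPM. Lyve1, the hyaluronan receptor of resident macrophages and lymphatic vessels, went the other way, from 17.2, 17.2, 20.0 and 18.2 to 9.38, 7.66, 10.4 and 10.2 CPM (log2 -0.88 ± 0.21 SE, adjusted p = 0.0017). The libraries of these genes did not overlap between the times. Gas6, a ligand that bridges dying cells to phagocytes, had 102 ± 16.6 and 93.9 ± 3.5 CPM and did not pass (adjusted p = 0.6).

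Neutrophil genes were mixed. Of 14 tested, 7 rose and 1 fell, with a median of 1.23, and the summed level was 47.8 to 161 CPM at 4 h and 235 to 327 CPM at 48 h. Slfn4, a Schlafen gene of myeloid cells, was uneven at 4 h, with 0.642, 9.17, 3.9 and 0.657 CPM, and higher in every library at 48 h, with 35, 74.3, 64.6 and 65.2 CPM (log2 4.10 ± 0.56 SE). Mmp9, a gelatin-degrading protease that neutrophils store, rose from 2.94, 5.68, 2.33 and 2.09 to 19.1, 31.5, 19.3 and 27.1 CPM. S100a9, the abundant calcium-binding protein of neutrophils, was 48.8, 47.1, 53.3 and 15.7 CPM at 4 h and 43.3, 42.3, 32.5 and 53.2 CPM at 48 h and did not pass (adjusted p = 0.81). Replicate 4 at 4 h was far below the other 3 in this gene, and without it the sign turned (log2 -0.23). Retnlg, a resistin-like protein of neutrophils, fell from 8.59 to 1.98 CPM and is named after its value was seen, as the only member of the list that fell. That call was lost without AC 4 h replicate 2 or with equal totals.

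Genes of class II antigen presentation were mixed. Of 7 tested genes 3 fell and 1 rose (median -0.65), whereas with equal totals 1 fell and 3 rose. H2-Aa, a chain of the class II molecule, was 39.4, 59.2, 55.4 and 113 CPM at 4 h and 31.8, 30.0, 23.1 and 26.5 CPM at 48 h (log2 -1.14 ± 0.21 SE). Its partner chain H2-Ab1 had 37.4 ± 18.5 and 19.8 ± 3.8 CPM, a fall whose call was lost with equal totals (log2 -0.43, adjusted p = 0.095). Cd74, the invariant chain, had 162 ± 97.8 and 89.3 ± 17.9 CPM. In all 3 genes, AC 4 h replicate 4 was the highest library, and without it Cd74 no longer passed (log2 -0.36, adjusted p = 0.16), nor did it without AC 48 h replicate 4 (adjusted p = 0.10) or with equal totals (0.29). The member that rose was H2-DMa, which helps load peptides, with 3.99 and 7.25 CPM. Of the lymphocyte markers only Cd3e, a chain of the T cell receptor complex, had a mean of 1 CPM or more over the table, and it was 0.758 ± 0.466 and 0.608 ± 0.119 CPM (adjusted p = 0.89).

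The genes of the first hours fell. Among immediate early genes, 16 of 25 tested fell and 1 rose, with a median of -0.99 (-0.61 with equal totals, where 13 fell and 2 rose). Fosb (chr7:19302696-19310045), a subunit of the AP-1 factor, had 81.2, 95.3, 72.7 and 75.3 CPM at 4 h and 0.842, 1.61, 1.03 and 1.63 CPM at 48 h (log2 -5.18 ± 0.45 SE, adjusted p = 7.5e-09). The related subunit Fos fell from 137, 300.2, 140.2 and 205 to 4.67, 10.3, 16.3 and 15.7 CPM, and Egr1, a zinc finger factor induced by growth signals, from 229, 395, 229 and 346 to 14.3, 27, 45.8 and 35.9 CPM. No library at 48 h reached the lowest library at 4 h in any of these 3 genes. Atf3, a stress-induced factor, was 12.9-fold lower at 48 h, at 22.4 ± 3.78 CPM against 289 ± 36 at 4 h. The genes whose cAMP response element is printed above, Btg2, Dusp1 and Maff, fell by 1.77, 1.80 and 1.55 on the log2 scale. They encode an antiproliferative protein, a phosphatase of MAP kinases and a small Maf factor. Egr3, a relative of Egr1, was the member that rose, from 2.41 to 4.98 CPM, and is named after its value was seen.

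Early cytokines, chemokines and feedback genes of NF-kB fell in part. Of 23 tested, 9 fell and 1 rose, with a median of -0.81 (-0.45 with equal totals, where 8 fell and 3 rose). Il6, a cytokine of the acute phase, had 32.7, 93.5, 57.2 and 44.8 CPM at 4 h and 4.27, 4.72, 5.67 and 5.27 CPM at 48 h (log2 -3.18 ± 0.55 SE, adjusted p = 6.3e-05). Cxcl1, a neutrophil attractant, fell from 42, 69.4, 75.6 and 37.7 to 5.11, 6.82, 7.76 and 9.06 CPM. Socs3, the inhibitor that IL-6 family signals induce, fell from 148 ± 36.6 to 26.2 ± 3.37 CPM and was 5.64-fold lower. Each of these genes separated the times completely. Of the 7 members with the NF-kB motif in the window, 6 passed the test and of the 9 without it 2 did. The cAMP response element was in 3 immediate early genes that passed, as did 10 of 17 without it, and all 21 cell cycle genes with a window passed with or without CCAAT or TTTGAA. In interferon-stimulated genes 4 of 7 with the motif and 5 of 6 without it passed, and in clock genes 2 of 5 with the E-box and 7 of 9 without it. Il1rn, which encodes the antagonist of the IL-1 receptor and also holds the motif, rose from 5.1 to 18.9 CPM and is named after its value was seen, as the member that went up.

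Interferon-stimulated genes split. Of 18 tested, 6 rose and 6 fell, with a median of -0.70. Without AC 4 h replicate 2 the median was -0.38, with 5 up and 5 down, and with equal totals it was -0.37. Cxcl10, a T cell attractant, was 21.2, 96.7, 82.2 and 89.9 CPM at 4 h and 2.85, 2.6, 2.31 and 2.46 CPM at 48 h (log2 -4.17 ± 0.55 SE, adjusted p = 2.2e-06). Ifit1, which binds foreign RNA and was the most abundant member, fell from 31.3, 199, 118 and 93.3 to 18.3, 25.6, 17.1 and 21.3 CPM. Irf7, the factor that amplifies interferon production, rose instead, from 4.45, 19.3, 23.4 and 17.4 to 96.3, 133, 85.6 and 123 CPM (log2 2.87 ± 0.34 SE). Replicate 1 was the lowest AC 4 h library in all 3 of these genes, and replicate 2 the highest in Cxcl10 and Ifit1.

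**Figure D4:**
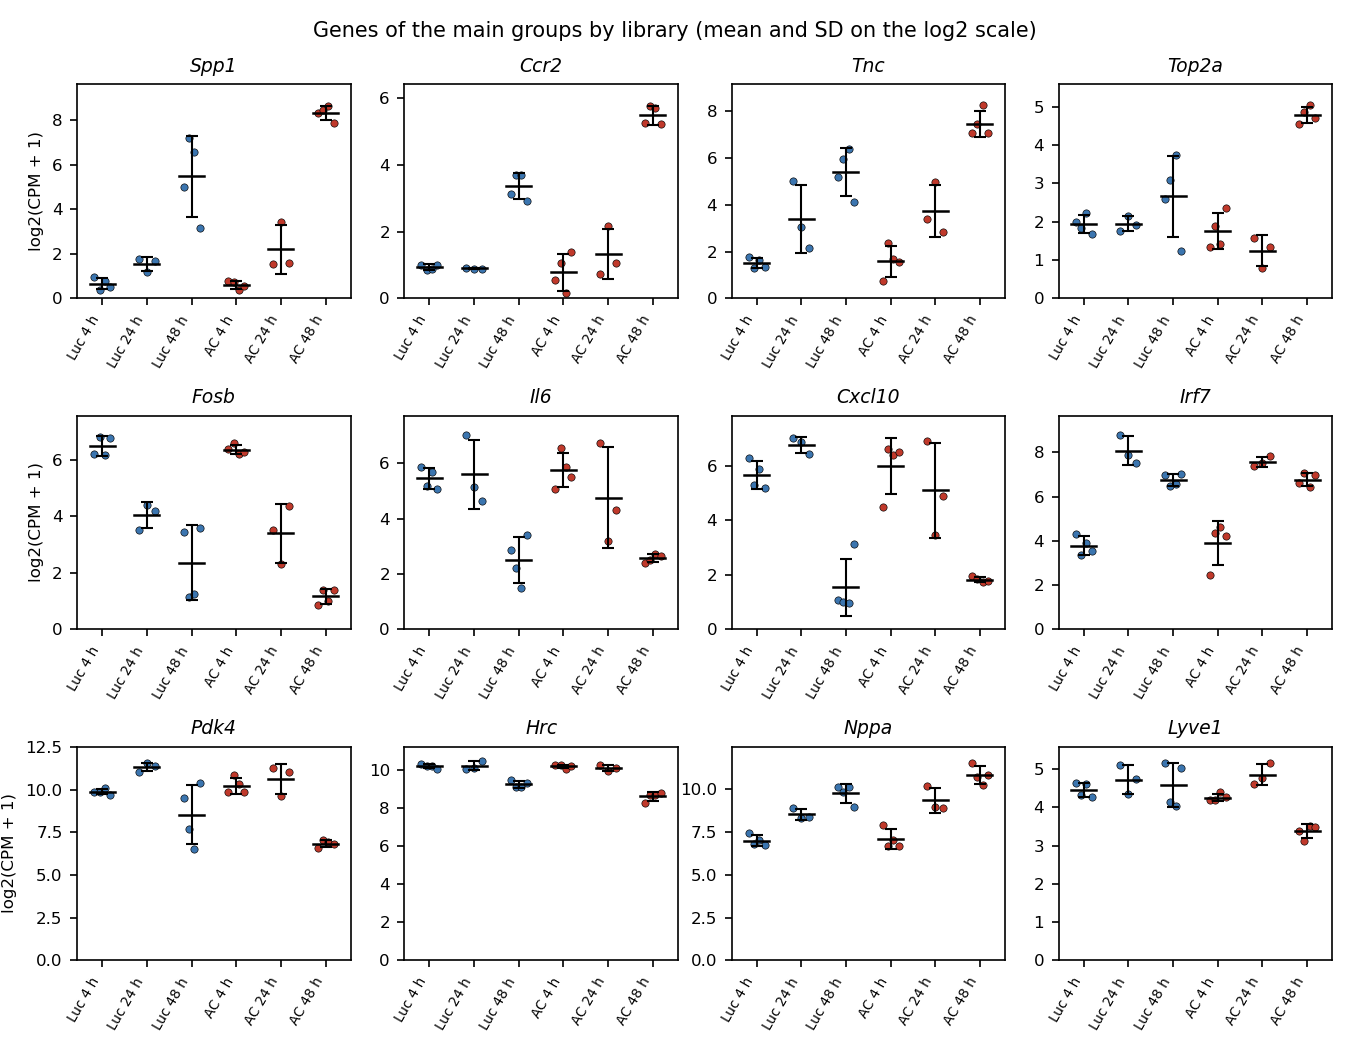
Log2(CPM + 1) (y axes) of genes from the main groups in each Luc and AC library at 4, 24 and 48 h (x axes), with the mean and SD of the log2 values. In AC hearts Spp1, Ccr2, Tnc, Top2a, Irf7 and Nppa are higher and Fosb, Il6, Cxcl10, Pdk4, Hrc and Lyve1 lower at 48 h than at 4 h in every library.

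All 25 cell cycle genes tested rose, with a median of 2.33. Without AC 4 h replicate 2, or with rescaling by median ratios, 24 passed. Top2a (chr11:98992947-99024189), the topoisomerase that untangles chromosomes, had 1.55, 2.7, 1.67 and 4.15 CPM at 4 h and 22.4, 28, 32.1 and 25 CPM at 48 h (log2 3.03 ± 0.34 SE, adjusted p = 2.2e-07). Ccnb1, the mitotic cyclin B1, was 0.168, 0.23, 0.109 and 0.257 CPM at 4 h and 7.78, 7.71, 8.68 and 7.54 CPM at 48 h. Both were low in every library at 4 h and in the AC 24 h libraries, at 1.42 ± 0.639 and 0.293 ± 0.194 CPM (n = 3). Pcna, the sliding clamp of DNA replication and the most abundant member, rose from 24.4 ± 4.41 to 46 ± 4.57 CPM (1.89 ± 0.389-fold). The genes whose windows are printed above rose likewise, Cdk1 from 1.68 to 17.1 CPM, Mki67 from 4.45 to 31.9 and Kif11, a motor of the spindle, from 1.07 to 7.75.

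Matrix genes and genes of activated fibroblasts rose. Of 25 tested, 21 rose and none fell, with a median of 2.13. Tnc (chr4:63959785-64047015), the matricellular protein tenascin C, had 0.671, 4.13, 2.26 and 1.95 CPM at 4 h and 135, 173, 305 and 132 CPM at 48 h (log2 5.87 ± 0.53 SE, adjusted p = 1.3e-08). Timp1, an inhibitor of matrix proteases, rose from 4.41, 8.33, 7.86 and 4.74 to 201, 159, 187 and 171 CPM, and Lox, which crosslinks collagen, from 2.52, 5.23, 3.35 and 2.79 to 66.6, 69.1, 124 and 54.6 CPM. The lowest library at 48 h exceeded the highest at 4 h several times over in each. Sparc, a collagen-binding protein and the most abundant member, rose less in scale, from 526 ± 91.3 to 1003 ± 94.4 CPM (1.91 ± 0.377-fold). The 4 members that did not pass were Ctgf, Thbs1, Acta2 and Fap. Acta2, the smooth muscle actin of myofibroblasts, was 265 ± 62.9 and 242 ± 40.9 CPM. Among other large increases, Aldh1a2, which makes retinoic acid, rose from 1.8, 2.67, 1.16 and 3.01 to 64.6, 69.8, 76.7 and 58.4 CPM (log2 4.47 ± 0.35 SE), and Ltbp2, a matrix protein related to the binding proteins of latent TGF-beta, from 2.33 ± 0.739 to 32.4 ± 10.6 CPM.

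Genes of resting fibroblasts were mixed. Of 14 tested, 4 rose and 5 fell (median -0.27, or 0.10 with equal totals). Gsn, the actin-severing protein gelsolin, fell from 1291, 1017, 1025 and 1068 to 367, 432, 541 and 391 CPM (log2 -1.35 ± 0.18 SE), and Smoc2, a matricellular protein, from 129 ± 28.5 to 51.7 ± 5.64 CPM. Endothelial genes were mixed too, with 4 of 15 up and 3 down (median -0.26, or 0.12 with equal totals and -0.11 without AC 4 h replicate 2). Apln, the peptide of endothelial tip cells, rose from 19.6, 10.4, 12.7 and 22.6 to 49.7, 61.2, 53.2 and 61.6 CPM. Its receptor Aplnr had 12.8, 12.6, 9.5 and 22.8 CPM at 4 h and 23.4, 31.3, 35.9 and 28.9 CPM at 48 h, a rise (log2 1.05 ± 0.38 SE, adjusted p = 0.026) that no longer passed without AC 4 h replicate 1 or 3 or without AC 48 h replicate 2 or 4 (adjusted p = 0.052, 0.085, 0.054 and 0.067). Aplnr also lost its call with the replicate number as a block (adjusted p = 0.093). Fabp4, a fatty acid carrier of capillary cells, fell from 494 ± 87.1 to 274 ± 47.7 CPM (adjusted p = 0.031), a call lost with equal totals (adjusted p = 0.16) and without any of AC 4 h replicates 1, 3 and 4 and AC 48 h replicates 2 and 4 (0.062 to 0.083). With the replicate number as a block it was lost too (adjusted p = 0.064). In mural cells, 3 of 10 genes rose and 2 fell (median 0.13, or 0.51 with equal totals and 0.067 without AC 4 h replicate 2). Cspg4, the pericyte proteoglycan NG2, rose from 8.43 ± 1.67 to 25 ± 5.27 CPM, while Rgs5, a regulator of G protein signalling in pericytes, fell from 492 ± 55.8 to 263 ± 33.7 and Abcc9, a subunit of a potassium channel, from 255 ± 100.2 to 113 ± 30.2.

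Genes of oxidative metabolism fell almost throughout. Of 24 genes of fatty acid uptake and oxidation 22 fell and none rose, with a median of -1.16, and with equal totals 21 fell. Pdk4 (chr6:5483351-5496278), a kinase that inhibits pyruvate dehydrogenase, had 930.3, 1824, 1268 and 921 CPM at 4 h and 94.4, 129.8, 120.3 and 111 CPM at 48 h (log2 -3.38 ± 0.54 SE, adjusted p = 2.5e-05). Ces1d, a carboxylesterase that splits stored triglycerides, fell from 150.3, 122, 120.1 and 139.6 to 25.1, 17.1, 24.5 and 24.5 CPM and was 5.83-fold lower. Lpl, the lipase that frees fatty acids from lipoproteins, fell from 3685 ± 627 to 1938 ± 327 CPM. Of 24 genes of the TCA cycle and respiratory chain, 23 fell and none rose, with a median of -1.05. Idh2, an enzyme of the TCA cycle, went from 1654, 1320.0, 1544 and 1610.0 to 562, 531, 560.2 and 579 CPM (log2 -1.45 ± 0.13 SE). Atp5b of the ATP synthase was 2.32-fold lower at 48 h. The libraries of all 5 genes named here from these lists separated by time.

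Glycolysis and hypoxia genes had no common direction, with 4 of 20 up and 5 down (median -0.13, or 0.25 with equal totals). Slc16a3, the lactate exporter MCT4, rose from 3.86, 6.6, 4.99 and 4.66 to 36.8, 31.7, 28.7 and 37.1 CPM (log2 2.53 ± 0.36 SE). Aldoa, the muscle aldolase, fell from 2328 ± 431 to 1364 ± 119 CPM. Pfkfb3, which makes an activator of glycolysis, was 18.5, 77.3, 48.1 and 37.2 CPM at 4 h and 13.1, 17.5, 16.7 and 15.7 CPM at 48 h, a call at the threshold (log2 -1.30, adjusted p = 0.0497) that was lost with equal totals and without each library other than AC 4 h replicate 1. Further losses came with the replicate number as a block (adjusted p = 0.12), without a filter on low levels (0.067) and with a filter at a mean of 10 CPM (0.053), among other settings.

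Sarcomere genes fell in 14 of 17 cases and none rose, with a median of -0.64, but with equal totals 5 fell (median -0.25). The summed level of the list was 63800.4 to 87193 CPM at 4 h and 34850.1 to 44028 CPM at 48 h. Myl2, the ventricular regulatory light chain, had 15649.6, 6777, 10656 and 10238 CPM at 4 h and 5739, 3207, 3053 and 3979 CPM at 48 h (log2 -1.42 ± 0.24 SE). Myh6, the fast heavy chain of adult mouse heart, fell from 10753, 19796, 11931 and 14399 to 5131, 9183, 6261 and 6621 CPM, and AC 4 h replicate 2 was its highest library but the lowest in Myl2 and Myl3. Myl3, the essential light chain, had 4165 ± 1558 and 1812 ± 597 CPM and overlapped between the times. Among genes of calcium handling and ion channels, 11 of 20 fell and 1 rose (5 and 3 with equal totals). Kcnip2, a subunit of the fast outward potassium current, fell from 291, 206, 255 and 223 to 76.6, 61.9, 78.8 and 84 CPM. Hrc, a calcium-binding protein of the sarcoplasmic reticulum, fell from 1221, 1227, 1078 and 1185 to 306, 418, 412 and 444 CPM (log2 -1.59 ± 0.13 SE, adjusted p = 5.3e-09). Atp2a2, the calcium pump SERCA2, was 2.74-fold lower, at 3846 ± 394 against 10520.0 ± 1632 CPM. The member that rose was Gja1, the gap junction protein connexin 43, with 280.5 and 425 CPM.

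Stress and fetal genes of cardiomyocytes rose in 6 of 11 cases and fell in 2 (median 0.996). Nppa, atrial natriuretic peptide, had 238, 99.1, 129 and 102 CPM at 4 h and 2898, 1659.7, 1189 and 1807 CPM at 48 h (log2 3.74 ± 0.33 SE, adjusted p = 1.1e-08). Ankrd1, a stretch-responsive ankyrin repeat protein and the most abundant member, rose 2.14 ± 0.383-fold, from 1784 ± 241 to 3820.2 ± 447 CPM. Mybphl, a myosin-binding protein, had 0.294, 0.201, 0.146 and 0.0734 CPM at 4 h and 2.38, 2.12, 2.01 and 5.53 CPM at 48 h, and its call was lost without AC 48 h replicate 5 (adjusted p = 0.080) or without AC 4 h replicate 4 (0.050014). The call was also lost with the replicate number as a block (adjusted p = 0.14) and with no subtraction of 1 from the deposited values (0.053). Nmrk2, a kinase that feeds NAD synthesis in stressed muscle, rose from 7.64, 5.6, 7.02 and 11.2 to 434, 229.9, 139.7 and 360.0 CPM (log2 4.95 ± 0.64 SE). Beside these, all 4 tested markers of atrial tissue rose. Myl7, the atrial light chain, had 0.042, 0.0574, 0.0364 and 0.0734 CPM at 4 h and 24.8, 8.84, 10.4 and 21.2 CPM at 48 h. Its 4 h values were thus near the floor. Myl4, another atrial light chain, went from 2.43, 1.12, 2.73 and 2.5 to 34.4, 17, 21.6 and 65.6 CPM. The summed level of the atrial list was 4.28 to 7.85 CPM at 4 h, 37.6 to 103 CPM at 48 h and 6.66 to 73.2 CPM in Luc hearts at 48 h. The part of atrial tissue in the rise of Nppa and Mybphl was not tested.

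Erythroid genes fell in all 5 cases. Hba-a1, a chain of hemoglobin, had 5935, 1462, 1248 and 3385 CPM at 4 h and 75.2, 36.7, 81.1 and 91.4 CPM at 48 h (log2 -5.17 ± 0.43 SE), and Hba-a2 followed it, with 2226 ± 1556 and 56.3 ± 19.2 CPM. These genes are near-identical copies among which the counting divides reads, so their split is uncertain. The summed level of the list was 2436 to 10695 CPM at 4 h and 82.2 to 236 CPM at 48 h, and 1723 to 2581 CPM in Luc hearts at 4 h. Replicates 1 and 4 held the most at 4 h and also the most Asah1. Removing Asah1 and the erythroid genes before rescaling to equal totals left 6013 rises and 1273 falls. Of the markers of other tissues, Cfd and Adipoq of fat cells rose from 0.645 ± 0.371 and 1.02 ± 0.706 CPM to 3.85 ± 1.85 and 2.57 ± 0.828 CPM. Car3, which fat cells also make, had 4.01 ± 2.22 and 9.53 ± 2.4 CPM and did not pass (adjusted p = 0.073). Car3 did pass in the fit of the compared groups only (adjusted p = 0.0055), with equal totals (0.018) and without AC 4 h replicate 3 (0.043). The call of Adipoq was lost without AC 4 h replicate 4 (adjusted p = 0.097) or without AC 48 h replicate 1 (0.076). Myl1, the light chain of fast skeletal muscle, fell from 70.8 ± 34.9 to 35.8 ± 9.58 CPM (adjusted p = 0.033) and no longer passed with equal totals (0.21), without AC 4 h replicate 1 (0.14) or 3 (0.12), or without AC 48 h replicate 2 (0.10) or 5 (0.079). Wt1, the single mesothelial marker tested, had 7.05 ± 1.76 and 4.1 ± 0.398 CPM and did not pass (adjusted p = 0.11). Wt1 did pass in the fit of the compared groups only (adjusted p = 0.011) and with array weights (0.0017). Xist, the RNA of the inactive X chromosome, was 50.6, 177, 58.6 and 53.2 CPM at 4 h and 126, 204, 213 and 162 CPM at 48 h, so AC 4 h replicate 2 lay among the 48 h libraries. Xist is among the genes with the longest transcripts, the class in which the median difference of that library was 0.42 on the log2 scale. The part of transcript length in the Xist level of that library was not tested.

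Sphingolipid genes were mixed, and none but Asah1 changed by more than 1.66 on the log2 scale. Of 31 tested, 10 rose and 6 fell (median 0.20, or 0.10 without AC 4 h replicate 2). With equal totals 18 rose and 4 fell. S1pr2, a receptor of S1P, rose from 3.61, 3.53, 3.2 and 5.4 to 12.6, 15.7, 15.7 and 13.6 CPM (log2 1.66 ± 0.17 SE, adjusted p = 9.3e-08), the largest rise of the list. Besides Asah1, the falls were those of Sphk1, Acer2, Smpd2, Sgms1 and Smpd1, and they ranged from -1.50 for Sphk1, the kinase that makes S1P, to -0.60 for Smpd1, the acid sphingomyelinase. Sphk1 went from 15.3 to 4.63 CPM, and Acer2, a ceramidase of the Golgi, from 30.4 to 14.5 CPM. Acer2, Smpd2, Sgms1 and Smpd1 are named after their values were seen.

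Genes of cell death rose in 13 of 20 cases and fell in 2 (median 0.71). Bcl2a1b, a survival factor of myeloid cells from a family of near-identical copies, rose from 2.32 ± 0.407 to 10.4 ± 1.95 CPM, with reads that the counting may have split among the copies. Mcl1, a survival factor and the most abundant member, had 204 ± 23.5 and 187 ± 9.7 CPM and did not pass. The falls were those of Fas, a death receptor, and Bcl2l1, another survival factor, by 1.35 and 0.57 on the log2 scale. Lysosome genes rose in 9 of 15 cases and fell in 2 (median 0.60). Ctss, a cathepsin of phagocytes, rose from 13.9, 15.2, 15.3 and 20.3 to 100.5, 138, 136 and 105 CPM (log2 2.82 ± 0.16 SE), and Ctsz from 25 ± 5.22 to 74.1 ± 7.07. Ctsd, the most abundant cathepsin here, fell from 1318 ± 341 to 936 ± 39.1 CPM (adjusted p = 0.017), and lost its call with equal totals (0.61) and without AC 4 h replicate 1 (0.082) or 3 (0.055).

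Heat shock chaperones fell in 7 of 14 cases and none rose (median -0.43), but with equal totals 1 fell and 2 rose. Dnajb1, a partner of Hsp70, had 66.8, 49.3, 40.8 and 44.3 CPM at 4 h and 24.3, 23.3, 23.8 and 36.9 CPM at 48 h (log2 -0.87 ± 0.17 SE). Hspa8, the constitutive Hsp70 and the most abundant member, went from 1954 ± 359 to 1215 ± 67.5 CPM (adjusted p = 0.0017, or 0.056 with equal totals). Hspa1a, the inducible Hsp70, had 16.6, 17.9, 8.61 and 16.4 CPM at 4 h and 2.73, 3.57, 2.26 and 15.1 CPM at 48 h and overlapped between the times. Its call (adjusted p = 0.033) was lost with equal totals and without AC 4 h replicate 1, 2 or 4 or AC 48 h replicate 1, 2 or 4 (0.066 to 0.10). With array weights the change was -0.42 (adjusted p = 0.48), against -1.49 in the fit as designed. AC 48 h replicate 5 was the highest 48 h library in both inducible genes. Targets of the stress factor ATF4 rose in 6 of 13 cases and fell in 1 (median 0.73). Mthfd2, a mitochondrial enzyme of folate metabolism, rose from 2.39, 1.95, 2.29 and 1.43 to 16.6, 29.1, 15.2 and 23.3 CPM (log2 2.84 ± 0.23 SE), and Psat1 of serine synthesis from 1.68 ± 0.209 to 12.3 ± 2.42. Vldlr, a lipoprotein receptor and the most abundant member, was the one that fell, from 261 ± 49.9 to 128 ± 15.5 CPM. Clock genes fell in 7 of 15 cases and rose in 2 (median -0.59), but with equal totals 2 fell and 4 rose. Arntl, the positive limb of the clock, fell from 16.3 ± 3.48 to 4.95 ± 0.471 CPM and Per1, of the negative limb, from 48.9 ± 8.42 to 20.0 ± 5.08. Tef, a clock-driven factor, had 73.3 ± 4.6 and 58.6 ± 2.06 CPM and did not pass, but did in the fit of the 8 AC libraries alone (adjusted p = 0.031). The hour of collection was not stated. Gm10052, a predicted gene among the 10 largest decreases, fell from 30.7, 42.7, 41.2 and 47.6 to 1.38, 5.04, 5.53 and 1.5 CPM.

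Luc hearts moved largely the same way over the same hours. Of the genes that rose in AC hearts 1541 also rose in Luc hearts, which is 46.2% of the AC rises and 81.6% of the Luc rises. The genes that fell in both numbered 1829, or 69.5% and 67.8%, and 18 and 7 genes were called in opposite directions. Across the 12555 genes, which are not independent, the changes in AC and in Luc hearts correlated at r = 0.80 (Spearman's rho 0.78). The change did not pass the test of a difference, described next, in Nmrk2 (log2 4.95 in AC and 4.69 in Luc hearts), Ankrd1 (1.10 and 1.11), Egr1 (-3.32 and -3.42), Cxcl10 (-4.17 and -4.11), Socs3 (-2.42 and -2.44) and Irf7 (2.87 and 2.98).

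The test of the difference itself called 421 genes (3.35%), of which the AC change lay above the Luc change in 362 (2.88%) and below it in 59 (0.47%). Cell cycle genes made up 21 of these, out of 25 tested, all with the larger AC change. Top2a reached 5, 7.51, 1.36 and 12.3 CPM in Luc hearts at 48 h, against 26.9 CPM in AC hearts, and the changes differed by 2.31 ± 0.48 (SE) on the log2 scale (adjusted p = 0.011). Matrix genes followed with 13 of 25, macrophage genes with 6 of 18 and lysosome genes with 4 of 15, again all with the larger AC change. Ccr2 was 7.81, 12, 6.63 and 12 CPM in Luc hearts at 48 h and differed by 2.27 ± 0.38 (adjusted p = 0.0048). Ms4a7 reached 3.38 CPM in Luc hearts (difference 2.19 ± 0.35, adjusted p = 0.0048). Aplnr fell in Luc hearts, to 1.64, 7.68, 2.69 and 12.4 CPM from a mean of 20.3, and rose in AC hearts (difference 2.93 ± 0.53, adjusted p = 0.0065). Of the genes of fatty acid uptake and oxidation 6 of 24 passed with the AC change below. Fam107a, an actin-associated stress gene, was 27.8, 15.1, 30.8 and 13.8 CPM in Luc hearts at 48 h and 6.04, 5.06, 4.37 and 5 CPM in AC hearts (difference -1.97 ± 0.30, adjusted p = 0.0048). Meox1, a homeobox factor of activated fibroblasts, and Ltbp2 completed the 5 smallest p-values with Asah1, Ms4a7 and Fam107a, and differed by 1.76 ± 0.26 and 1.91 ± 0.30.

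The count of this test moved with single libraries of both treatments, to 217 without AC 48 h replicate 2, 228 without AC 4 h replicate 3 and 215 without Luc 48 h replicate 3. Luc 48 h replicates 1 and 3 correlated at 0.984 with each other, as did 2 and 4, but at 0.945 to 0.969 across these pairs. In Spp1, for one, the Luc 48 h libraries were at 31.5, 148, 7.86 and 93.4 CPM, with replicates 1 and 3 below 2 and 4. Without replicates 1 and 3 the test called 50 genes, 47 of them among the 421, with 9 cell cycle, 4 matrix and 2 macrophage genes, and no gene of fatty acid oxidation, while Asah1, Ccr2, Top2a, Ccnb1, Aplnr, Ctss, Meox1, Fam107a, Ms4a7 and Ltbp2 still passed. Spp1 then differed by 1.50 (adjusted p = 0.18). With median ratios the 449 calls divided into 275 above and 174 below. AC and Luc hearts cannot be compared for cell content beyond the marker lists, whose summed macrophage level at 48 h was 338 to 587 CPM in Luc hearts and 905 to 1314 CPM in AC hearts, and whose neutrophil level was 313 to 921 CPM and 235 to 327 CPM. The part of these cells in the differences was not tested.

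**Figure D5:**
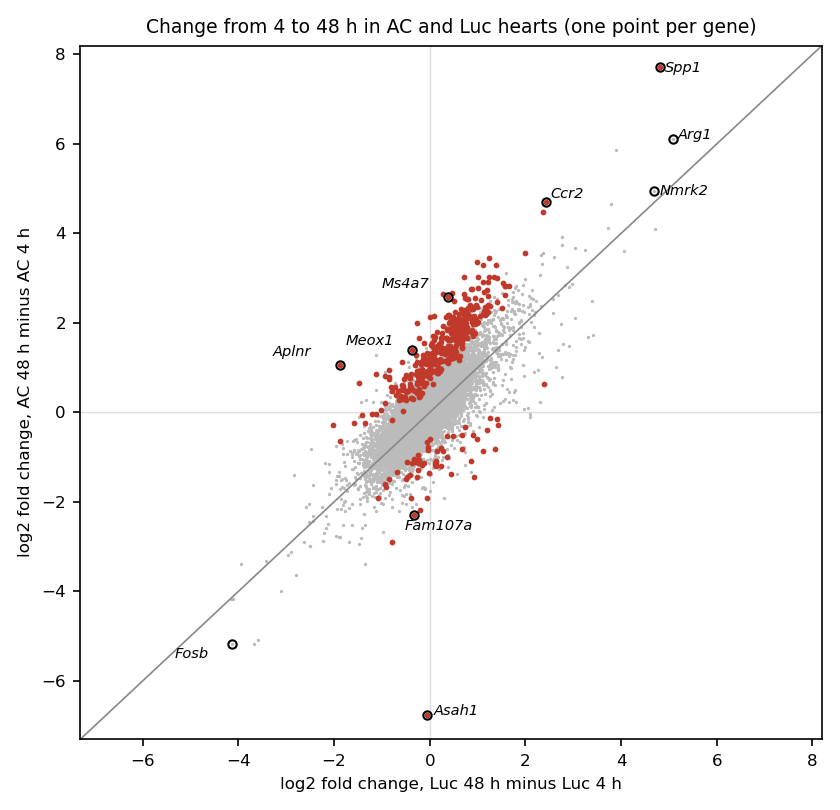
Log2 fold change from 4 to 48 h in Luc hearts (x axis) and AC hearts (y axis), 1 point per gene tested, with the line of equal change. Red points are the 421 genes whose changes differed by the test (adjusted p under 0.05), most of them above the line, and circles mark the named genes.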

How the data were processed

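The deposited table of 24 libraries and 17406 genes was used (sham, and AC and Luc hearts at 4, 24 and 48 h). Per the study's methods, reads were aligned with STAR to mm10, quantified on RefSeq genes by expectation-maximisation in Partek Flow and normalised by TMM. These methods are stated for the RNA-seq of the study in general, and whether the counting used strand is not given in the sources used here. The values the authors deposited are CPM after TMM to which 1 had been added, as the minimum of exactly 1 shows, so 1 was subtracted. They are normalised values and not counts, so count tests were not used. Many low values of a library are whole multiples of a small step, as single reads would give, while others are fractions of it. Depth was not derived from this step.

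The 12555 genes whose mean reached 1 CPM were taken to log2(CPM + 1) and fitted in limma 3.58.1 under R 4.3.3, with 7 group means and empirical Bayes moderation along a mean-variance trend. The spread of a gene was pooled over the 7 groups, so an SE is not that of the compared libraries alone. The contrasts were AC 48 h minus AC 4 h, Luc 48 h minus Luc 4 h, and their difference, each with Benjamini-Hochberg adjustment over all genes tested and a threshold of 0.05. At 48 h the AC replicates are numbered 1, 2, 4 and 5. The script was tested on simulated data. No pair of libraries held identical values (0 pairs). Folds are ratios of mean CPM.

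The comparison, the gene lists and the rule for named genes were chosen with earlier results of these data known. The rule named the 10 largest increases and decreases among genes with an adjusted p under 0.05, a mean of at least 10 CPM over the 8 AC libraries and no overlap between the times. It also named, per list, the 2 called members with the largest change and the member with the highest mean, the 5 genes with the smallest p for the difference between AC and Luc, and Asah1, Xist and Ces1d. Some genes that the rule picks are not reported here. Genes outside it are named to list the members of a count, or beside their printed windows.

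Alternatives were the pseudocount (0.1), the filter (none, or a mean of at least 10 CPM), the fit (compared groups only, no trend, array weights, replicate block), the scaling (median ratios, equal totals), no subtraction of 1, and each library left out. Added after seeing the data were counts without Luc 48 h replicates 1 and 3 and equal totals without Asah1 and the erythroid genes.

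Gene positions are those of the file, whose stop lies 1 base past the end given by RefSeq in most genes and was reduced by 1. Transcript length is that of the longest GENCODE M21 transcript (12387 genes, 98.7%). Sequences are from RefSeq, GRCm38.p6, in which 9737 of the genes tested had a window. Figures were drawn with matplotlib 3.10.9.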

Additional observations from a re-analysis of the deposited data

Results flagged for a closer look

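Among the 172 sets of 4 libraries checked for the named genes, 12 had a library far from the other 3 by Dixon's criterion, where chance gives about 1 in 20. At 4 h, AC replicate 4 was low in S100a9 (15.7 CPM against 47.1 to 53.3) and high in H2-Ab1 (65.0 against 27.2 to 30.0). AC 4 h replicate 3 was low in Hspa1a (8.61 against 16.4 to 17.9) and high in Car3 (7.31 against 2.57 to 3.19), and AC 4 h replicate 2 was high in Vldlr (335 against 226 to 242) and Xist (177 against 50.6 to 58.6). At 48 h, AC replicate 5 was high in Mybphl (5.53 against 2.01 to 2.38), Hspa1a (15.1 against 2.26 to 3.57) and Dnajb1 (36.9 against 23.3 to 24.3). AC 48 h replicate 4 was low in Cd74 (62.7 against 94.4 to 100.1) and high in Psat1 (15.9 against 11.0 to 11.1), and AC 48 h replicate 2 was low in Ces1d (17.1 against 24.5 to 25.1).

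In 17 named genes the change from 4 to 48 h differed between AC and Luc hearts by the limma test of the difference. The AC change was above the Luc change, on the log2 scale, by 2.93 in Aplnr, 2.90 in Spp1, 2.31 in Top2a, 2.27 in Ccr2, 2.19 in Ms4a7, 2.11 in Aldh1a2, 1.91 in Ltbp2, 1.76 in Meox1, 1.69 in Ccnb1, 1.33 in Apln, 1.31 in S1pr2, 1.24 in Ctss, 1.19 in Mthfd2, 0.97 in Sparc and 0.88 in Ctsz. In Asah1 the difference was -6.70 and in Fam107a -1.97. Of these 17 genes, 17 passed with equal totals, 16 with median ratios, 12 without Luc 48 h replicate 3, 10 without both Luc 48 h replicates 1 and 3, and 10 with the replicate block.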

How the results depend on the processing

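The count of genes changed in AC hearts was 5970 and ranged from 5138 (without AC 48 h replicate 2) to 6350 (without AC 4 h replicate 2) as single libraries were left out, and the count in Luc hearts (4584) from 3709 to 4609. With a mean of at least 10 CPM, which tests fewer genes, the counts were 3607 and 2952. The other alternatives kept both counts within 1.5 times, the array weights giving 8093 in AC hearts and 6114 in Luc hearts. The share of rises among the AC calls was 55.9%, 49.6% with median ratios, 83.6% with equal totals and 42.2% with a mean of at least 10 CPM.

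The count for the difference between AC and Luc (421) was the least stable. It was 235 with a pseudocount of 0.1, 103 with a mean of at least 10 CPM, 1621 with array weights, 777 with equal totals, 672 with equal totals after Asah1 and the erythroid genes were removed, 76 with the replicate block and 50 without both Luc 48 h replicates 1 and 3. Leaving out single libraries moved it from 215 (without Luc 48 h replicate 3) to 1056 (without Luc 48 h replicate 4). It was also more than 1.5 times lower without AC 4 h replicate 3 (228), AC 48 h replicates 2 (217), 4 (232) or 5 (269), Luc 4 h replicates 1 (228), 3 (236) or 4 (273), or Luc 48 h replicate 1 (250). The causes were not tested.

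Libraries with the same replicate number at the 2 times are not stated to be paired. Deviations of same-numbered AC libraries at the 2 times correlated at 0.55, 0.44 and -0.20, and of Luc libraries at 0.03 to 0.17. Those of differently numbered libraries ranged from -0.66 to 0.61 in AC and from -0.16 to 0.12 in Luc hearts. With the number as a block the counts were 4764 in AC and 4328 in Luc hearts.

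Of the values of the named genes under the alternatives, 1590 kept direction and call, 64 lost and 7 gained the call, and 10 reversed, all in genes that did not pass in the fit as designed. Cd3e became 0.046 with equal totals and 0.036 with equal totals without Asah1 and the erythroid genes. Under these settings Gas6 became 0.28 and 0.25, Mcl1 0.27, which passed (adjusted p = 0.048), and 0.24, and Tef 0.068 and 0.041. As single libraries were left out, Cd3e ranged from -0.26 to 0.055, the highest without AC 4 h replicate 2, and S100a9 from -0.23, without AC 4 h replicate 4, to 0.34. Depth was not weighed, since the deposited values are normalised and not counts.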

Other observations

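The AC libraries at 24 h belong to neither side of the comparison. Asah1 was at 305, 104 and 190.2 CPM in the 3 libraries. The matrix gene Tnc, at 15.3 ± 13.1 CPM (SD, n = 3), and the monocyte receptor Ccr2, at 1.77 ± 1.54 CPM, lay between their means at 4 h (2.25 and 0.818) and 48 h (186 and 44.5). The neutrophil list instead had its highest summed level at 24 h, with 459 to 856 CPM, against 47.8 to 161 CPM at 4 h and 235 to 327 CPM at 48 h. Mmp9 had 2.31, 13.4 and 3.79 CPM at 24 h and S100a9 23.3, 154 and 43.4 CPM. Cxcl10 was at 120.2, 10.0 and 28.8 CPM and Irf7 at 167, 181 and 226 CPM. The 24 h values were not tested against either time.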
